A study of Mus musculus with 4 samples.

Results

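The chemokine ligand genes were followed across 4 microarrays of sorted mouse thymic epithelial cells (TECs), the stromal cells that attract and instruct developing thymocytes. Members were taken by name: array gene names beginning with Ccl or Cxcl and a digit, together with Cx3cl1, Xcl1 and Pf4, with receptors left out. This gave 36 genes on 45 probes, out of 21292 named genes on the arrays. Of the 36, 33 genes entered the test across 16798 features, which asked that both arrays of either group read well above background, and 31 passed on all 4 arrays. Passing through 1 group alone favours genes that differ. Ccl28 was above background on 1 array (control 2), and Cxcl15 and Cxcl17 on none, so these 3 were not tested.

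The study asked what the loss of Meis1, a homeobox transcription factor, does to gene expression in TECs. Both groups carried K14-CreERT2, a recombinase that tamoxifen switches on in cells using the keratin 14 promoter. Meis1-CKO mice had both Meis1 alleles floxed, and control mice, called wild type in some labels, had 1 floxed and 1 normal allele. Tamoxifen was given to both groups at 3 weeks of age, as 1 mg a day for 3 days, and cells lacking CD45 and bearing EpCAM were sorted after 4 more days. There were 2 pools of 6 mice per genotype, made in 2 independent experiments, so the p-values below measure only the spread between these pools. Keratin 14 is chiefly a keratin of medullary TECs, so recombination need not reach all cells sorted. Control 1 and Meis1-CKO 1 shared a slide and scan (slide 1), as did control 2 and Meis1-CKO 2 (slide 2).

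Chemokines are small secreted proteins that bind receptors on migrating cells and set the direction in which those cells move. In the thymus, TECs make ligands for the receptors CCR9, CCR7 and CXCR4, which bring progenitors in from the blood, hold them in the cortex and draw positively selected thymocytes into the medulla. Medullary TECs and dendritic cells also make CCR4 ligands, and many inflammatory chemokines come chiefly from macrophages, dendritic cells and lymphocytes.

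Levels are given as the log2 signal relative to the 75th percentile of the same array, so 0 is a signal at that percentile, and they are compared only for the same probe across arrays. Between 58.6% and 63.6% of spots were above background on each array and none was saturated. Across features the other 3 arrays correlated with one another at 0.936 to 0.943, while Meis1-CKO 2 correlated with them at 0.857 to 0.884 and so stood apart. Meis1 itself read -0.12 (control 1), -0.91 (control 2), -0.44 (Meis1-CKO 1) and -2.08 (Meis1-CKO 2). Its groups overlapped, with a difference of -0.75 (SE 0.69, n = 2 pools per group), and whether its probe lies in the deleted part was not tested. Results are therefore given within each slide, and with and without Meis1-CKO 2 where that array decides a direction.

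The promoters are shown first, because Cxcl1, Cxcl2 and Cxcl3 share a run of letters there. RefSeq's table (GRCm38.p6) had 29 promoters of 26 of the 36 genes, each from 250 bases before to 50 after the start. It had no entry for Ccl2, Ccl4, Ccl5, Ccl7, Ccl11, Ccl24, Cxcl5, Cxcl11, Cxcl16 and Cxcl17. A form of the NF-kappaB motif, GGG and TTTCC with any 2 bases between them, was searched on both strands and was found in 5 of the 29 (17.2%), against 1.63% of all 32851 promoters in the table. The capitals in the 60-base stretches mark the match, which reads on the gene's own strand or as its reverse complement.
Cxcl1 (chr5:90891131-90891190, plus strand): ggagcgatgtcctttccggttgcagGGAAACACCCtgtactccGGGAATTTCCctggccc
Cxcl2 (chr5:90903777-90903836, plus strand): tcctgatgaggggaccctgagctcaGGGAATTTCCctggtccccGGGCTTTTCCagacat
Cxcl3 (chr5:90786003-90786062, plus strand): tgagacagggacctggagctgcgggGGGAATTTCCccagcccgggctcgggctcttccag
Ccl20 (chr1:83116661-83116720, plus strand): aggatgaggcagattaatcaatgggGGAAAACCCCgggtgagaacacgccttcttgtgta
Ccl9 (chr11:83578637-83578696, minus strand): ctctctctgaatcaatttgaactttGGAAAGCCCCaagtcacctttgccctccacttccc

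Cxcl1, Cxcl2 and Cxcl3, neighbours on chromosome 5, shared the run GGGAATTTCC, which began 71, 97 and 73 bases before their starts. Cxcl1 and Cxcl2 held 2 matches each, and the others 1. The interferon-stimulated response element, searched as GAAA, any 2 bases and GAAA again, was in 3 of the 29 promoters (10.3%), against 3.44% of all promoters. In Ccl19 and Cxcl10 the match was the same 10 letters, and in Cxcl14 it was another run.
Ccl19 (chr4:42756539-42756598, minus strand): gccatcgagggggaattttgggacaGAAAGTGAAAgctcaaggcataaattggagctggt
Cxcl10 (chr5:92349068-92349127, minus strand): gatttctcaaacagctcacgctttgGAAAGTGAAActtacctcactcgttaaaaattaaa
Cxcl14 (chr13:56296689-56296748, minus strand): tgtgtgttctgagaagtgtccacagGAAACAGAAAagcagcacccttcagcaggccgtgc

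The core letters TGACAG, which MEIS proteins are known to bind, were also in 3 of the 29 promoters (10.3%), against 19.2% of all promoters. The 3 genes were Ccl12, Ccl20 and Ccl9, and the first is shown because it is the only one of the 3 without an NF-kappaB match.
Ccl12 (chr11:82101769-82101828, plus strand): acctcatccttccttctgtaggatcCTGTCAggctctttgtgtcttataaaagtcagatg
No match in any stretch printed here overlapped a match to another of the motifs. A match describes the letters of the window and is neither a bound site nor a cause.

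The ligands that draw thymocytes read lowest on Meis1-CKO 2 in all 4 cases (36.9% of all features), and none passed the test. Ccl25, the CCR9 ligand that attracts thymocyte progenitors, read 7.60 on control 1, 7.51 on control 2, 7.69 on Meis1-CKO 1 and 5.91 on Meis1-CKO 2. On this probe the first 3 arrays lay within 0.2 of one another, and Meis1-CKO 2 alone was low. Ccl25 differed by 0.08 on slide 1 and -1.60 on slide 2 (3.02-fold lower), and by -0.76 between group means (SE 0.68, n = 2, limma adjusted p = 1). Without Meis1-CKO 2 the difference in Ccl25 was 0.13. The second Ccl25 probe read 4.56 on control 1, 3.36 on control 2, 4.75 on Meis1-CKO 1 and 1.72 on Meis1-CKO 2. There the controls differed as well, and both arrays of slide 1 lay above both of slide 2. Ccl19, a CCR7 ligand that helps bring cells to the medulla, read 6.79 and 6.86 in the controls and 6.76 and 4.64 in Meis1-CKO 1 and 2. Both Meis1-CKO arrays lay below both controls, but Meis1-CKO 1 by so little that the slide 1 difference was -0.02, against -2.22 on slide 2 (4.67-fold lower). For Ccl19 the group means differed by -1.12 (SE 0.77, limma adjusted p = 1), and by -0.06 without Meis1-CKO 2. Each of its probes also lists 3 predicted accessions that matched no gene of the RefSeq table.

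Ccl21a, the other CCR7 ligand and a product of medullary TECs, read 6.57 and 5.31 in the controls and 5.68 and 4.77 in the Meis1-CKO arrays. It read lower in Meis1-CKO on both slides, with differences of -0.88 and -0.54, yet control 2 lay below Meis1-CKO 1, so the groups overlapped. For Ccl21a the group difference was -0.71 (SE 0.63, limma adjusted p = 1), but -0.08 without control 1 and -0.25 without Meis1-CKO 2. Its probe lists RefSeq accessions of Ccl21a, Ccl21b and Ccl21c, near-identical genes that it cannot tell apart. Cxcl12, the CXCR4 ligand that retains progenitors in the cortex, read 2.45 and 0.63 in the controls and 1.80 and 0.40 in the Meis1-CKO arrays. Here the slides differed more than the genotypes: both arrays of slide 1 lay above both of slide 2. Cxcl12 differed by -0.65 and -0.23 within the slides and by -0.44 between groups (SE 0.81, limma adjusted p = 1). With the replicate number as a block its SE was 0.43. The sign turned without control 1 (0.47) or without Meis1-CKO 2 (0.26). Each of these runs leaves 1 slide with a single array, so the gap between slides enters the difference. The second Cxcl12 probe, above background on 3 arrays, gave -1.05 and -1.13 within the slides, and its groups overlapped too.

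**Figure D1:**
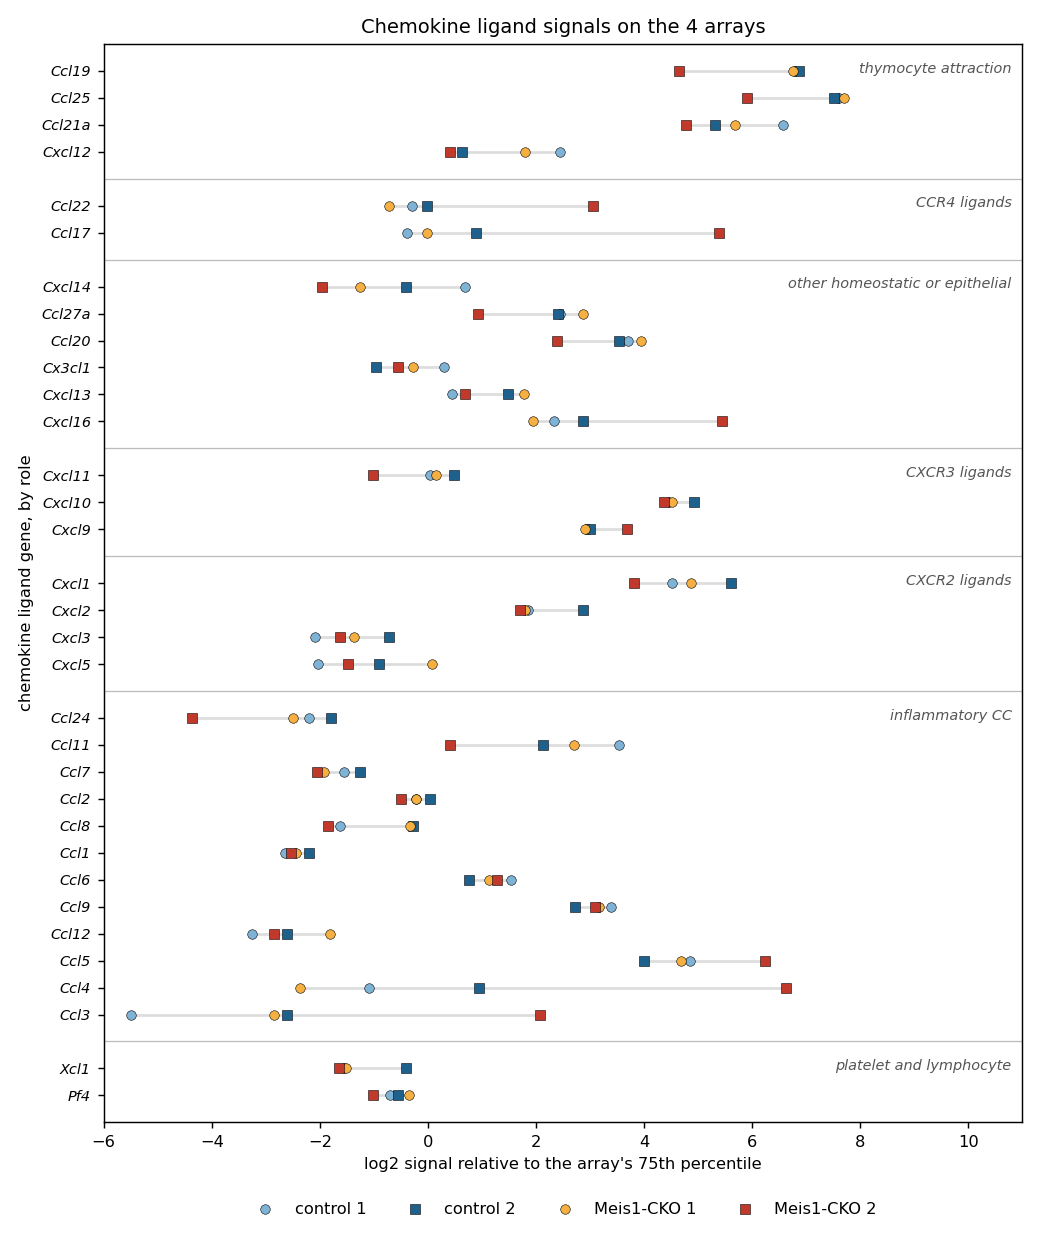
Signals of the 33 tested chemokine ligand genes on each array, grouped by role, on a log2 scale relative to the array's 75th percentile; each point is 1 array (2 control in blue, 2 Meis1-CKO in orange and red) and the grey line spans the 4. Meis1-CKO 2 (red squares) is the lowest array for 18 genes and the highest for 7, among them Ccl4, Ccl17 and Ccl3.

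The CCR4 ligands Ccl17 and Ccl22, which attract medullary thymocytes and regulatory T cells, read far higher on Meis1-CKO 2 than on the other arrays. Ccl17 read -0.39 and 0.89 in the controls and -0.02 and 5.38 in Meis1-CKO 1 and 2. Meis1-CKO 1 lay between the controls and Meis1-CKO 2 alone was high, so that Ccl17 differed by 0.38 on slide 1 and by 4.49 on slide 2 (22.5-fold). Over both groups Ccl17 differed by 2.43 (SE 1.72, limma adjusted p = 1). Ccl22 read -0.29 and -0.02 in the controls and -0.73 and 3.06 in the Meis1-CKO arrays. Meis1-CKO 1 was the lowest array and Meis1-CKO 2 the highest, with differences in Ccl22 of -0.44 on slide 1 and 3.08 on slide 2 (8.48-fold) and of 1.32 between groups (SE 1.22, limma adjusted p = 1). Without Meis1-CKO 2 the differences were -0.26 for Ccl17 and -0.57 for Ccl22.

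Among the other homeostatic and epithelial ligands, Cxcl14, a ligand that epithelia make at rest, was the one chemokine with an unadjusted p under 0.05. It read 0.69 and -0.40 in the controls and -1.25 and -1.97 in the Meis1-CKO arrays. Both Meis1-CKO arrays lay below both controls, and Cxcl14 was lower on both slides, with differences of -1.95 (3.86-fold) and -1.57 (2.96-fold). For Cxcl14 the difference of -1.76 (SE 0.58, n = 2, limma adjusted p = 1, unadjusted 0.0253) was larger than the gap between the controls (1.10) and that between the Meis1-CKO arrays (0.72). Leaving out each array in turn gave -2.31 to -1.21, and normexp background correction gave -0.96. The share of all features with an unadjusted p under 0.05 was 2.77%, so 1 of 33 chemokines lies near that background.

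Cxcl16, a membrane-bound ligand of CXCR6 made by antigen-presenting cells, read 2.34 and 2.87 in the controls and 1.94 and 5.44 in the Meis1-CKO arrays. Like Ccl22, it was lowest on Meis1-CKO 1 and highest on Meis1-CKO 2. Cxcl16 differed by -0.40 on slide 1, by 2.57 on slide 2 (5.93-fold) and by 1.08 between groups (SE 1.15, limma adjusted p = 1), and by -0.67 without Meis1-CKO 2.

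Ccl20, the CCR6 ligand, read 3.71 and 3.53 in the controls and 3.95 and 2.38 in the Meis1-CKO arrays, and Ccl27a, a CCR10 ligand of skin epithelium, read 2.45 and 2.41 in the controls and 2.86 and 0.92 in the Meis1-CKO arrays. Both were highest on Meis1-CKO 1 and lowest on Meis1-CKO 2, the pattern of Ccl25. The Ccl20 difference was 0.24 on slide 1 and -1.15 on slide 2, and that of Ccl27a 0.41 and -1.48. Without Meis1-CKO 2 the group differences turned from -0.46 to 0.33 for Ccl20 and from -0.54 to 0.43 for Ccl27a. The Ccl27a probe also lists an accession of the predicted gene Gm13306, whose signal it cannot tell apart.

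Cxcl13, which organises B cell follicles, read 0.44 and 1.49 in the controls and 1.78 and 0.68 in the Meis1-CKO arrays, and Cx3cl1, the membrane-bound ligand of CX3CR1, read 0.30 and -0.96 in the controls and -0.28 and -0.55 in the Meis1-CKO arrays. In both genes the groups overlapped and the slides had opposite signs. Cxcl13 differed by 1.35 and -0.81 within the slides (0.27 between groups, SE 0.62), and Cx3cl1 by -0.58 and 0.42 (-0.08 between groups, SE 0.57), each with a limma adjusted p of 1. Leaving out 1 array turned Cxcl13 to -0.25 (control 1) or -0.28 (Meis1-CKO 1) and Cx3cl1 to 0.55 (control 1) or 0.06 (Meis1-CKO 2).

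The CXCR3 ligands, which interferon-gamma induces and which attract activated T cells, spanned at most 1.5 on the log2 scale within either slide. Cxcl9 read 2.97 and 2.99 in the controls and 2.91 and 3.68 in the Meis1-CKO arrays, with Meis1-CKO 2 the highest. Cxcl10 read 4.46 and 4.93 in the controls and 4.51 and 4.36 in the Meis1-CKO arrays, which overlapped. Cxcl11 read 0.04 and 0.49 in the controls and 0.15 and -1.02 in the Meis1-CKO arrays, with Meis1-CKO 2 the lowest. The 3 did not move one way on slide 2: Cxcl9 differed there by 0.69, Cxcl10 by -0.57 and Cxcl11 by -1.50. On slide 1 they differed by -0.06, 0.05 and 0.12, and the limma adjusted p of each was 1. Without Meis1-CKO 2 the difference of Cxcl9 turned from 0.32 to -0.07.

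The CXCR2 ligands, which recruit neutrophils, were lower on Meis1-CKO 2 than on control 2 in all 4 tested cases (56.3% of all features). Of the 4, 3 were highest on control 2 (25.7% of all features). Cxcl1 read 4.52 and 5.60 in the controls and 4.87 and 3.82 in the Meis1-CKO arrays. Cxcl2 read 1.86 and 2.87 in the controls and 1.79 and 1.70 in the Meis1-CKO arrays. Cxcl3 read -2.09 and -0.72 in the controls and -1.37 and -1.62 in the Meis1-CKO arrays. Control 2 was thus the high array in these 3 genes, as in 9 other chemokines. The other genes with an NF-kappaB match read otherwise, since Ccl9 was lowest on control 2 and Ccl20 highest on Meis1-CKO 1. In Cxcl1, Cxcl2 and Cxcl3 the controls differed from each other by 1.08, 1.01 and 1.37. On slide 2 Cxcl1 differed by -1.79 (3.45-fold lower), Cxcl2 by -1.17 and Cxcl3 by -0.90, and on slide 1 by 0.35, -0.07 and 0.72. Only Cxcl2 of these 3 had both Meis1-CKO arrays below both controls, with a difference of -0.62 (SE 0.52, limma adjusted p = 1), and -0.12 without control 2. Cxcl5 read -2.03 and -0.90 in the controls and 0.08 and -1.48 in the Meis1-CKO arrays. It was highest on Meis1-CKO 1, with differences of 2.11 on slide 1 (4.31-fold) and -0.58 on slide 2. The group differences were -0.72 for Cxcl1, -0.09 for Cxcl3 (0.60 without control 2 and 0.04 without Meis1-CKO 2) and 0.76 for Cxcl5 (-0.02 without Meis1-CKO 1).

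The inflammatory ligands Ccl3, Ccl4 and Ccl5, made by activated macrophages, dendritic cells and lymphocytes, were highest on Meis1-CKO 2. Ccl4 read -1.10 and 0.94 in the controls and -2.36 and 6.62 in Meis1-CKO 1 and 2. The Meis1-CKO arrays held both its lowest and its highest value, 8.98 apart. Ccl4 differed by -1.26 on slide 1 (2.39-fold lower) and by 5.68 on slide 2 (51.3-fold higher), and by 2.21 between groups (SE 2.80, limma adjusted p = 1). Without Meis1-CKO 2 the difference in Ccl4 was -2.28.

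Ccl3 read -5.49 and -2.61 in the controls and -2.85 and 2.07 in the Meis1-CKO arrays. It was not well above background on control 1, so Ccl3 entered the test through the Meis1-CKO arrays alone, where it is higher. Its slide 1 difference of 2.64 thus rests in part on a dim signal, while on slide 2 it differed by 4.68 (25.7-fold). Meis1-CKO 1 lay below control 2, so the groups overlapped, and the Ccl3 difference of 3.66 (SE 1.77, limma adjusted p = 1) was 1.20 without Meis1-CKO 2. Ccl5 read 4.85 and 3.99 in the controls and 4.69 and 6.23 in the Meis1-CKO arrays, with a difference of -0.15 on slide 1 and 2.24 on slide 2 (4.72-fold). For Ccl5 the group difference was 1.04 (SE 0.68, limma adjusted p = 1), and 0.28 without Meis1-CKO 2.

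The eotaxins Ccl11 and Ccl24, CCR3 ligands that attract eosinophils, were lowest on Meis1-CKO 2. Ccl11 read 3.53 and 2.12 in the controls and 2.70 and 0.40 in the Meis1-CKO arrays, with differences of -0.83 on slide 1 and -1.72 on slide 2 (3.28-fold lower). Its groups overlapped, since Meis1-CKO 1 lay above control 2, and the Ccl11 difference was -1.27 (SE 0.91, limma adjusted p = 1), and -0.13 without Meis1-CKO 2. Ccl24 read -2.20 and -1.79 in the controls and -2.50 and -4.37 in the Meis1-CKO arrays, the last not well above background. Both Meis1-CKO arrays lay below both controls, with Ccl24 differences of -0.30 on slide 1, -2.58 on slide 2 and -1.44 between groups (SE 0.71, limma adjusted p = 1). For Ccl24 normexp gave -0.40, and leaving out Meis1-CKO 2 gave -0.51. The second Ccl24 probe was above background on no array.

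The monocyte chemoattractants Ccl2, Ccl7, Ccl8 and Ccl12 lie together on chromosome 11. Ccl7 read -1.55 and -1.25 in the controls and -1.92 and -2.06 in the Meis1-CKO arrays. It was lower on both slides, and its difference of -0.59 (SE 0.43, limma adjusted p = 1) exceeded the gaps within the controls (0.30) and within Meis1-CKO (0.14), though normexp gave -0.30. Cxcl14 and Ccl7 were the 2 chemokines of 33 for which this held, against 14.3% of all features. The second Ccl7 probe, above background on 1 array per group, was not tested. It read -1.17 and -3.32 in the controls and -2.78 and -3.98 in the Meis1-CKO arrays, so its groups overlapped. Ccl8 read -1.62 and -0.27 in the controls and -0.34 and -1.85 in the Meis1-CKO arrays, and Ccl12 read -3.25 and -2.61 in the controls and -1.82 and -2.85 in the Meis1-CKO arrays. Both read higher in Meis1-CKO on slide 1 (differences of 1.28 and 1.43) and lower on slide 2 (-1.58 and -0.24), and their groups overlapped. The difference of Ccl8, -0.15, became 0.52 without control 2 and 0.60 without Meis1-CKO 2.

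Ccl2 gave a measure of the error within an array, because its probe was printed 10 times. Its mean was -0.22 and 0.03 in the controls and -0.22 and -0.49 in the Meis1-CKO arrays, with an SD between spots of 0.11, 0.05, 0.13 and 0.08. The 10 spots of Meis1-CKO 2 ran from -0.60 to -0.36 and those of control 2 from -0.05 to 0.12, without overlap, while the spots of control 1 and Meis1-CKO 1 overlapped. Over all 245 probes printed 10 times the median SD was 0.10 to 0.12 per array. For these probes spot error within an array is thus small beside differences of 1 or more between arrays. It was not examined for the dimmer chemokine probes, such as that of Ccl3, and spots of 1 array are not replicates of a genotype. The Ccl2 difference of -0.26 had an SE of 0.44 (n = 2, limma adjusted p = 1).

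**Figure D2:**
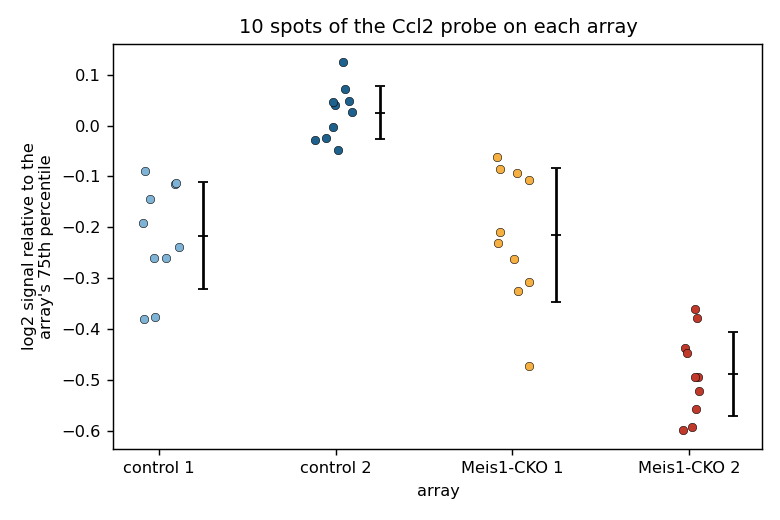
The 10 spots of the Ccl2 probe on each of the 4 arrays, as log2 signal relative to the array's 75th percentile; points are spots, and the bar is their mean with 1 SD. Spots on Meis1-CKO 2 (mean -0.49) lie below all spots on control 2 (mean 0.03), while control 1 and Meis1-CKO 1 both average -0.22.

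Of the remaining ligands, Ccl6, Ccl9, Ccl1 and Pf4 had group differences within 0.1 of 0. Ccl6 read 1.54 and 0.76 in the controls and 1.13 and 1.27 in the Meis1-CKO arrays, and Ccl9 read 3.38 and 2.72 in the controls and 3.17 and 3.09 in the Meis1-CKO arrays. These rodent ligands of myeloid cells were lowest on control 2, and their group differences were 0.05 (Ccl6) and 0.08 (Ccl9). Ccl1, the CCR8 ligand, read -2.65 and -2.21 in the controls and -2.44 and -2.53 in the Meis1-CKO arrays, a difference of -0.05. Pf4, which platelets store, read -0.70 and -0.55 in the controls and -0.36 and -1.01 in the Meis1-CKO arrays, a difference of -0.06. For these 4 genes the groups overlapped, the standard errors were 0.44 to 0.49, and leaving out 1 array turned the sign: Ccl6 to -0.34 without control 2 and -0.01 without Meis1-CKO 2, Ccl9 to -0.25 and Ccl1 to 0.16 without control 2, and Pf4 to 0.02 without control 2 and 0.27 without Meis1-CKO 2. Xcl1, which attracts dendritic cells bearing XCR1, read -1.56 and -0.40 in the controls and -1.51 and -1.64 in the Meis1-CKO arrays. Control 2 was its high array, with Xcl1 differences of 0.05 on slide 1 and -1.25 on slide 2 (2.37-fold lower), and the group difference of -0.60 (SE 0.55, limma adjusted p = 1) was -0.02 without control 2.

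Counted together, limma called 0 of the 33 chemokines higher and 0 lower in Meis1-CKO at an adjusted p under 0.05, as it did for 0% of all 16798 features in either direction. At an unadjusted p under 0.05 there was 1 chemokine, Cxcl14, against 466 features. At least a 2-fold difference with both Meis1-CKO arrays beyond both controls was seen upwards in 0 chemokines (3.35% of all features) and downwards in 3, Cxcl14, Ccl24 and Ccl19 (3.94% of all features). Ccl24 entered through the controls, where it is higher, and the count was 2 among genes above background on all 4 arrays and 0 with normexp. At any size, 0 chemokines lay wholly above the controls (11.1% of all features) and 5 wholly below (14.4%), the other two being Ccl7 and Cxcl2. The median difference over the 33 was -0.15, and -0.05 over all features. Without Meis1-CKO 2, limma again called 0 higher and 0 lower, the median was -0.06, and Meis1-CKO 1 lay at least 2-fold beyond both controls upwards for 2 chemokines, Cxcl5 (1.55) and Ccl12 (1.11), against 4.95% of all features, and downwards for 2, Ccl4 (-2.28) and Cxcl14 (-1.40), against 4.59%.

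The 2 slides gave different pictures of the chemokines. On slide 1, 17 of the 33 were higher in Meis1-CKO and 16 lower (50.1% and 49.9% of all features), with a median of 0.00. On slide 2, 10 were higher and 23 lower (43.7% and 56.3% of all features), with a median of -0.57 against -0.12 for all features. The median size of the difference, whatever its sign, was 0.38 on slide 1 and 1.17 on slide 2 for chemokines, and 0.36 and 0.58 for all features. Differences of at least 4-fold upwards on slide 2 were seen in 6 chemokines (3.87% of all features), namely Ccl3, Ccl4, Ccl5, Ccl17, Ccl22 and Cxcl16. At least 4-fold downwards there were 2, Ccl19 and Ccl24 (4.35%). Of these, Ccl3 entered the test through the Meis1-CKO arrays alone and Ccl24 through the controls alone, in each case the group where it is higher. A further count at 2-fold gave 6 upwards (11.3% of all features) and 12 downwards (17.1%) on slide 2, and 5 upwards (8.55%) and 2 downwards (5.91%) on slide 1. The sign was opposite on the slides for 23 of 33 chemokines (53.1% of all features), lower on both for 8 (26.5%) and higher on both for Ccl3 and Ccl17 only (20.4%).

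**Figure D3:**
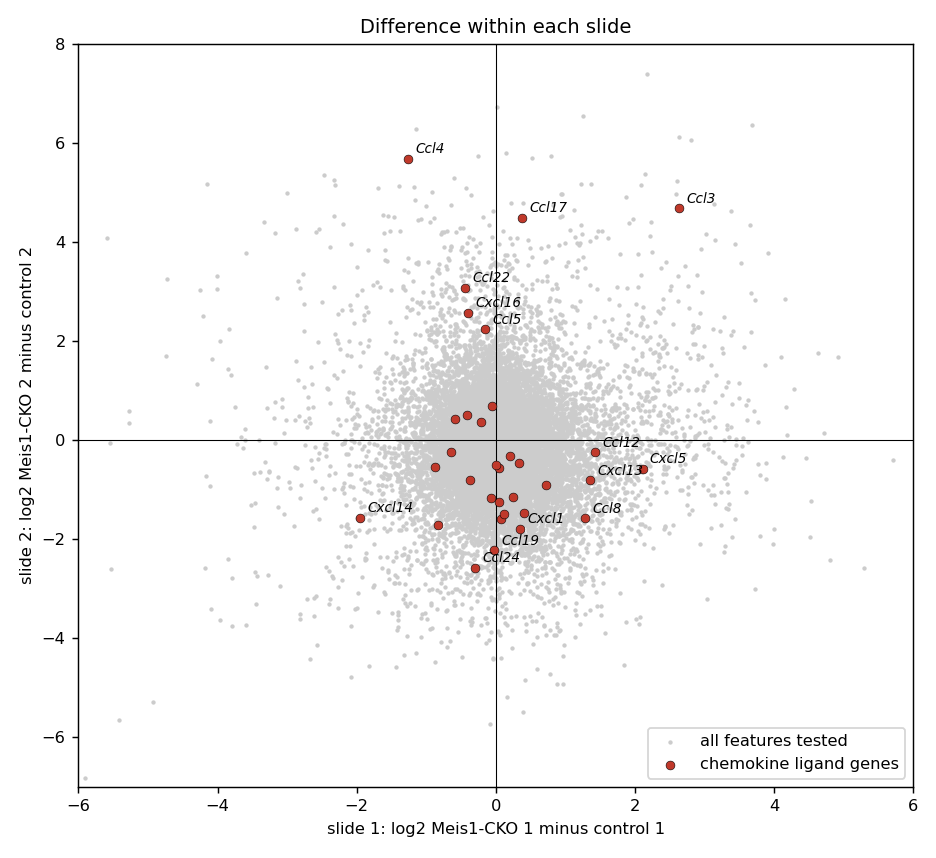
Log2 difference Meis1-CKO minus control within slide 1 (horizontal) and within slide 2 (vertical); grey points are the 16798 features tested, of which 2 lie outside the axes, and red points are the 33 chemokine genes. The chemokines spread more along the vertical axis, from -2.58 (Ccl24) to 5.68 (Ccl4), than along the horizontal one, from -1.95 (Cxcl14) to 2.64 (Ccl3); the values -2.58 and 2.64 each rest on an array where the gene was not well above background.

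Pools of 1 genotype also differed in these genes. The median size of the difference between the controls was 0.78 over the chemokines (0.46 over all features), and that between the Meis1-CKO arrays was 1.10 (0.65). Meis1-CKO 2 was the highest array for 7 chemokines (29.1% of all features) and the lowest for 18 (36.9%), and control 2 was the highest for 12 (25.7%). The limma call depended on Meis1-CKO 1: leaving it out, which sets Meis1-CKO 2 alone against both controls and assumes that it varies as the controls do, called 3 chemokines higher (1.24% of all features) and 0 lower (0.744%). These were Ccl4 (6.70, SE 0.86, limma adjusted p = 0.0321), Ccl17 (5.13, SE 0.68, limma adjusted p = 0.0321) and Ccl22 (3.22, SE 0.53, limma adjusted p = 0.0419). Over all settings tried the limma adjusted p ran from 0.0321 to 1 for Ccl4 and Ccl17 and from 0.0419 to 1 for Ccl22, and no other setting called a chemokine.

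Genes that lie side by side were then read together, in order of their probe positions on mm9. On chromosome 11 the run from Ccl2 to Ccl1 was lower on slide 2 in 6 of 6 genes, and the run from Ccl5 to Ccl4 was higher in 5 of 5, where 56.3% of all features were lower and 43.7% higher. Within the latter run Ccl9 and Ccl6, which lie between Ccl5 and Ccl3, differed by only 0.37 and 0.51. On chromosome 5 the run from Cxcl5 to Cxcl2, with Pf4 inside it, was lower on slide 2 in 5 of 5 tested genes. On chromosome 8 Cx3cl1 lies between Ccl22 and Ccl17 and differed by 0.42, against 3.08 and 4.49 for its neighbours. On chromosome 4 Ccl27a, Ccl21a and Ccl19 were lower on slide 2 in 3 of 3 genes. Slide 1 did not repeat the runs on chromosomes 11 and 5. On that slide 4 of 6 genes from Ccl2 (by 0.00) to Ccl1, and 4 of 5 from Cxcl5 to Cxcl2, were higher. From Ccl5 to Ccl4, 4 of 5 were lower. The chromosome 4 run was lower on slide 1 too in 2 of 3 genes, Ccl21a (-0.88) and Ccl19 (-0.02).

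**Figure D4:**
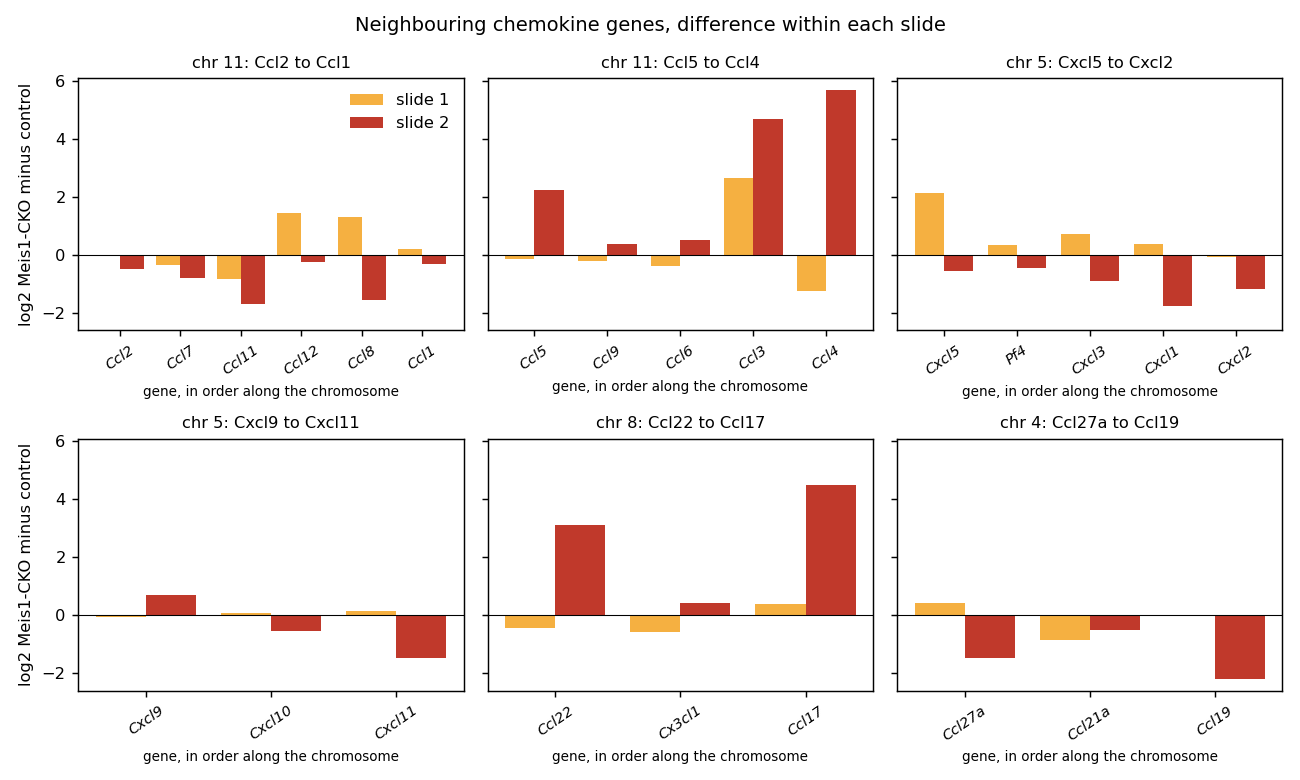
Log2 difference Meis1-CKO minus control on slide 1 (orange) and slide 2 (red) for chemokine genes in 6 chromosomal neighbourhoods, in the order of their probes along the chromosome; each bar is 1 array against 1 array, so there is no error bar. Slide 2 bars point down in 6 of 6 genes from Ccl2 to Ccl1 and up in 5 of 5 from Ccl5 to Ccl4.

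Second probes gave a check on single signals. Of 9 genes with 2 probes, 5 had both tested, and their signs matched in 5 of 5 on slide 2 and 4 of 5 on slide 1. On slide 2 the second probes gave 1.97 for Ccl5, 2.87 for Cxcl16, -2.13 for Ccl19 and -1.64 for Ccl25, each within 0.3 of the first. The largest gap was 0.90, for Cxcl12, at -0.23 and -1.13. Probes are printed for the 5 genes with the largest upward differences on slide 2, for Ccl25 among the thymocyte ligands and for Cxcl14, in lower case because no motif is marked. Whole 60-base probes are given for the second probes of Ccl25 and Cxcl16, whose genomic spans of 3449 and 2742 bases on mm9 show that they cross exon junctions, and the first 30 bases for the others.
Ccl4 (chr11:83478052-83478111, plus strand, mm9): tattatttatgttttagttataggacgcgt
Ccl3 (chr11:83461358-83461417, minus strand, mm9): catgaactgacaaatgtacaatagatgctt
Ccl17 (chr8:97335770-97335829, plus strand, mm9): tttggagacgccagggctgctgtccatggt
Ccl22 (chr8:97274709-97274768, plus strand, mm9): tggtattataagctatagttatatttatat
Cxcl16 (chr11:70269521-70272262, minus strand, mm9): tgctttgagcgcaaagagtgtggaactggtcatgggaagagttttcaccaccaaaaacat
Ccl25 (chr8:4354202-4357650, plus strand, mm9): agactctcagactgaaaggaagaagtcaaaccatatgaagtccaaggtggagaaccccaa
Cxcl14 (chr13:56390078-56390137, minus strand, mm9): cctcattagaggccgcactgtatggctgtg

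Receptors were tested as the other side of the pathway: 18 of 26 receptor genes listed were tested, limma called 0, and 2 had an unadjusted p under 0.05 (2.77% of all features). Both, Cxcr2 and Ccr8, entered the test through the Meis1-CKO arrays alone, where they read higher, so this count is no support for a change. Their median difference was 0.76 between the groups, 0.03 on slide 1 and 1.67 on slide 2. Ccr7, the receptor for Ccl19 and Ccl21a, read -0.93 and -0.18 in the controls and -0.88 and 3.78 in the Meis1-CKO arrays. Cxcr4, the receptor for Cxcl12, read 1.81 and 2.09 in the controls and 1.81 and 5.62 in the Meis1-CKO arrays. Ccr9, the receptor for Ccl25, read 1.04 and -0.58 in the controls and -0.05 and 2.17 in the Meis1-CKO arrays. All 3 were highest on Meis1-CKO 2 (29.1% of all features), the array on which their ligands read lowest (36.9% of all features). Ptprc, a leukocyte marker, was also highest on that array (5.55). Which cells in the pools gave the receptor signals was not tested. Ccr4, the receptor for Ccl17 and Ccl22, read 2.94 and 2.70 in the controls and 3.06 and 1.60 in the Meis1-CKO arrays, so it was lowest where its ligands were highest. Ackr4, an atypical receptor that removes Ccl19, Ccl21 and Ccl25, read -1.17 and -2.41 in the controls and -1.55 and -3.56 in the Meis1-CKO arrays. Without Meis1-CKO 1, which sets Meis1-CKO 2 alone against both controls, the differences were 4.34 for Ccr7 and 3.67 for Cxcr4. These 2 receptors were picked for this setting after their values in it were seen, and the other receptors are not given in it.

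The receptors with the smallest p were Cxcr2, Ccr8, Ackr2 and Ccrl2. Cxcr2, the receptor for Cxcl1 and its kin, read -2.55 and -3.40 in the controls and -0.15 and -0.72 in the Meis1-CKO arrays, with both Meis1-CKO arrays higher. Cxcr2 differed by 2.54 (SE 0.52, limma adjusted p = 1), by 2.40 and 2.67 within the slides, and since it was above background on 1 of 2 control arrays, these values rest in part on a dim signal. Ccr8, the receptor for Ccl1, was above background on both Meis1-CKO arrays and on neither control. With each control set at the dimmest signal that still passed on it, Ccr8 was 1.38-fold higher in Meis1-CKO (limma adjusted p = 1). This is no strict bound, because a probe can fail at a brighter signal than another that passes. On control 1, Pax5 failed at -3.14 and Dll4 passed at -3.29. Ackr2, a scavenger of inflammatory CC ligands, differed by -1.71 (SE 0.90) and Ccrl2 by 1.49 (SE 0.89), each with a limma adjusted p of 1.

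Genes known to act upstream of TEC chemokines, in the lymphotoxin, NF-kappaB and interferon pathways, were all tested, and limma called 0 of 32, with 1 at an unadjusted p under 0.05 (2.77% of all features). This was Cd40lg, which entered the test through the Meis1-CKO arrays alone. Their median difference was 0.11. Cd40lg, the T cell ligand of CD40, was above background on both Meis1-CKO arrays and on neither control. With each control set at its dimmest passing signal, which is no strict bound, Cd40lg was 1.48-fold higher in Meis1-CKO (limma adjusted p = 0.866). Foxn1, the TEC transcription factor required for Ccl25 expression, read 1.02 and 1.21 in the controls and 0.85 and -0.69 in the Meis1-CKO arrays, with a difference of -1.04 (SE 0.63, limma adjusted p = 1). It was, like Ccl19, lower in both Meis1-CKO arrays but chiefly in the second, with -0.17 on slide 1 and -1.90 on slide 2. Rel, an NF-kappaB subunit, differed by 1.52 (SE 0.86) and Irf8, an interferon-response factor of dendritic cells, by 0.97 (SE 0.55), each with a limma adjusted p of 1. Irf7 and Stat2, which transmit interferon signals, differed by 4.07 and 2.98 without Meis1-CKO 1, with Meis1-CKO 2 alone set against both controls. These 2 genes are named after their values were seen.

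Markers of other cell types also differed on slide 2, and their part in the chemokine results was not tested. Of all features, 43.7% were higher and 56.3% lower on slide 2, and 50.1% were higher and 49.9% lower on slide 1. Ptprc, which encodes the CD45 that the sort selected against, read 1.44 and 1.19 in the controls and -0.75 and 5.55 in the Meis1-CKO arrays. The 7 pan-leukocyte markers summed to 28.2 and 34.5 in the controls and 25.5 and 137 in the Meis1-CKO arrays (linear signal relative to the 75th percentile), with 6 of 7 higher on slide 2, 1 of 7 higher on slide 1 and none below background on all 4 arrays. Of 10 dendritic cell markers on the array, 9 were higher on slide 2, with a median of 2.55 against 0.10 on slide 1. All 10 were above background on Meis1-CKO 2, and 6 or 7 on each other array, and their sums ran from 59.2 to 64.7 in the controls and from 72.3 to 77.8 in Meis1-CKO. Most of that sum was H2-DMb2, the 1 marker of the 10 that was lower on slide 2 (-0.72), and without it the other 9 summed to 10.4 and 13.8 in the controls and 11.9 and 50.3 in the Meis1-CKO arrays. Itgax, which encodes the dendritic cell integrin CD11c, read -3.76 (not above background) and -2.00 in the controls and -2.82 and 2.97 in the Meis1-CKO arrays.

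Macrophage markers were higher on slide 2 in 8 of 11 genes (median 1.45, -0.16 on slide 1), with sums of 25.5 and 32.5 in the controls and 31.0 and 38.0 in the Meis1-CKO arrays, and Mertk was below background on all 4 arrays. Thymocyte markers were higher on slide 2 in 13 of 15 genes (median 1.57) but lower on slide 1 in 13 of 15 (median -2.13), with sums of 57.1 and 22.7 in the controls and 8.64 and 54.5 in Meis1-CKO, and Rag2 was below background on all 4. The TEC lists, without chemokines in them, were set beside the 56.3% of all features lower on slide 2. Pan-TEC markers were lower there in 5 of 5 genes (sums of 157 and 150 in the controls, 157 and 86.4 in Meis1-CKO). Medullary TEC markers were lower in 9 of 9 (235 and 181, 174 and 104). Cortical TEC markers were lower in 5 of 8 (121 and 60.5, 98.5 and 48.5), near the share over all features. The cortical markers Ly75 (1.25), Dll4 (0.54) and Ctsl (0.02) were higher on slide 2. Epcam, the marker of the sort, read 4.24 and 4.72 in the controls and 4.47 and 4.11 in the Meis1-CKO arrays. Fibroblast markers were lower on slide 2 in 8 of 8 genes (16.7 and 12.6, 14.4 and 8.32). In pools of cells, fewer cells of a type and less RNA per cell cannot be told apart.

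**Figure D5:**
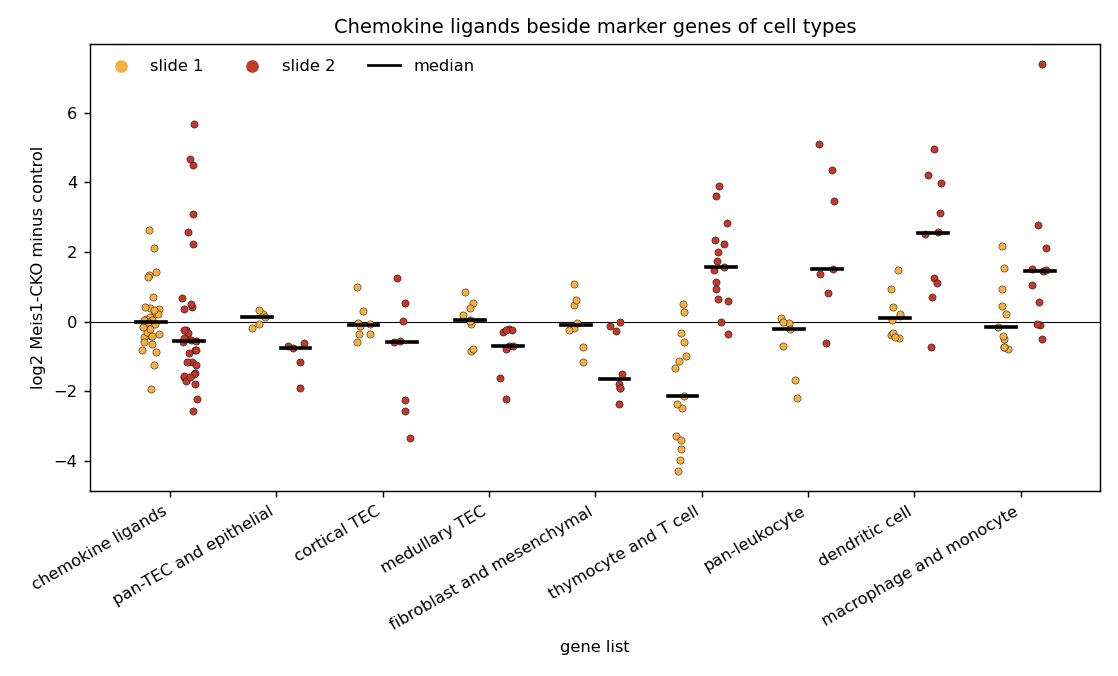
Log2 difference Meis1-CKO minus control on slide 1 (orange) and slide 2 (red) for the chemokine ligands and for marker genes of 8 cell types, with chemokines removed from the marker lists; points are genes and the black line is the median. On slide 2 the pan-leukocyte (1.50) and dendritic cell (2.55) medians lie above 0 and the pan-TEC (-0.76) and fibroblast (-1.65) medians below, while the chemokines (-0.57) spread over both sides.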

How the data were processed

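Expression was measured on 4 single-colour (Cy3) Agilent arrays, 2 control and 2 Meis1-CKO, from cDNA amplified from 10 ng of RNA. The deposited scanner files hold spot intensity values that, per the file headers, Agilent Feature Extraction 9.5.3.1 had background-subtracted and detrended, with no scaling between arrays. The authors' deposited value table holds log2 values with no stated processing, which matched differences of the scanner log2 values (r = 1, slope 1). It served as an alternative, with medians of 0.038 (control 1), 0.092 (control 2), -0.058 (Meis1-CKO 1) and -0.12 (Meis1-CKO 2).

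Each array's log2 processed signals were set relative to their 75th percentile, without 1639 control spots of 45018 and without 63 to 78 outlier spots per array. Spots of a probe were averaged, and the tested probe with the highest mean stood for its gene. Symbols are those of the array files, updated by RefSeq accession for 26690 of 41174 probes. limma 3.58.1 (R 4.3.3) compared the groups without a block, with Benjamini-Hochberg adjustment over 16798 features, an adjusted p threshold of 0.05, 2 residual degrees of freedom and 5.54 after moderation. Precision is limited by the number of arrays. The test was checked on simulated data. Every member was named, together with Meis1, 5 receptors of the thymocyte and CCR4 ligands, and the 4 receptors and 4 upstream genes with the smallest p. The members, lists and comparisons were chosen with earlier results of these data known. Alternatives covered scaling (array median, quantile), background correction (normexp, offset 50), the deposited table, the filter on dim probes, the probe of a gene, the replicate number as a block, and each array left out. Ccl21b, Ccl21c, Ccl26 and Ccl27b, which had no name of their own on the arrays, were not analysed here.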

Additional observations from a re-analysis of the deposited data

How the results depend on the processing

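Over 9 alternatives that kept all arrays, the 33 chemokine differences (31 with the filter on all 4 arrays) kept their direction, and 0 chemokines were called higher or lower. With the replicate number as a block, limma called 0 higher and 0 lower, and the counts of separated genes were 0 and 3, as without it. Same-numbered arrays deviated together at a correlation of only 0.133, and no label gives same-numbered pools a shared day or litter. The block changed no call. With normexp, 1 chemokine (Ccl3, 1.54) was at least 2-fold higher with separated groups and 0 were lower. Ccl3 entered the test through the Meis1-CKO arrays alone, where it is higher, and the normexp share over all features was not computed. These normexp counts are therefore not read as a result about chemokines.

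Leaving out each array gave 1 to 6 chemokines separated and at least 2-fold higher, and 2 to 11 separated and at least 2-fold lower. The share over all features was computed only without Meis1-CKO 2 (4.95% higher, 4.59% lower). The counts of the other runs are therefore not read as a result about chemokines. Meis1-CKO 2 was the lowest array for 36.9% of all features. The direction turned for 3, 6, 2 and 14 chemokines without control 1, control 2, Meis1-CKO 1 and Meis1-CKO 2, with no share over all features computed. The differences then ran from -0.27 to 0.16 for Ccl1, -0.26 to 5.13 for Ccl17, -1.24 to 0.33 for Ccl20, -0.57 to 3.22 for Ccl22, -1.64 to 0.13 for Ccl25, -1.50 to 0.43 for Ccl27a, -2.28 to 6.70 for Ccl4, -0.34 to 0.44 for Ccl6, -0.90 to 0.60 for Ccl8, -0.25 to 0.41 for Ccl9, -0.71 to 0.55 for Cx3cl1, -1.35 to 0.47 for Cxcl12, -0.28 to 0.82 for Cxcl13, -0.67 to 2.83 for Cxcl16, -0.77 to 0.60 for Cxcl3, -0.02 to 1.55 for Cxcl5, -0.07 to 0.70 for Cxcl9 and -0.39 to 0.27 for Pf4. Where the direction held they ran from -2.42 to -0.13 for Ccl11, 0.08 to 1.11 for Ccl12, -1.34 to -0.08 for Ccl21a, -2.37 to -0.51 for Ccl24, 1.20 to 6.12 for Ccl3, 0.28 to 1.81 for Ccl5, -2.18 to -0.06 for Ccl19, -1.26 to -0.17 for Cxcl1, -1.28 to -0.11 for Cxcl11, -1.13 to -0.12 for Cxcl2, -0.39 to -0.12 for Ccl2, -0.50 to -0.03 for Cxcl10 and -1.18 to -0.02 for Xcl1. The cause was not tested. With 2 pools per group limma called 0 of 16798 features, and a difference as large as 2.43 (Ccl17, SE 1.72) was not called. A missing call therefore excludes neither a small nor a large difference. Signals were dim for Ccl3 and Ccl24 on 1 array each.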
